A study of Mus musculus with 4 samples.

Results

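The genes described are 9 adhesion molecules of leukocytes, taken by name from a table of counts for 55359 genes in T8 leukemia cells: the integrin chains *Itga4*, *Itga6*, *Itgal*, *Itgb1*, *Itgb2* and *Itgb7*, the selectin ligand *Selplg*, and *Icam1* and *Pecam1* of the immunoglobulin superfamily. T8 is a line of B progenitor leukemia cells that were *Irf4*-/- in every sample, grown from a single tumor of an *Irf4*-deficient mouse, and it was established on stromal cells before it grew without them. Cells received a retrovirus coding for GFP alone (EV-RV, 2 libraries) or for GFP plus IRF4 (IRF4-RV, 2 libraries), and RNA of viable cells was sequenced the day after transduction. The design text calls the libraries of a group biological replicates. The line stands for 1 tumor, so the spread between libraries does not cover differences between tumors. The protocols in the labels speak of T11 cells, whereas titles and tissue say T8, and the libraries were taken as T8.

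Integrins are heterodimers of an α and a β chain that bind matrix proteins and counter-receptors on other cells. Blood cells keep them mostly inactive until talin and kindlin, recruited downstream of the small GTPase RAP1, bind the tail of the β chain. In the bone marrow, B progenitors hold on to stromal cells through VLA-4 (α4 with β1), which binds VCAM-1 and fibronectin, while LFA-1 (αL with β2) binds ICAM-1 on other cells. Selectins are lectins that start rolling of leukocytes on endothelium, and PSGL-1, the product of *Selplg*, carries the glycans they bind. PECAM-1 binds itself at contacts between cells.

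The libraries held between 31230223 and 37817752 counts, at which a floor of 3 counts equals 0.0824 to 0.0952 CPM (counts scaled to the library size after TMM, a correction for composition). The floor covers counting error only. *Irf4*, the check of the labels, gave 8070 and 7600 counts in the EV-RV and 95578 and 90693 in IRF4-RV libraries, with reads from vector and endogenous locus not separated. The EV-RV counts stand against the *Irf4*-/- label at face value, and counts per gene do not show which exons the reads came from. The 13 markers of B progenitors summed to 6274 and 6575 CPM in EV-RV against 5300 and 5223 CPM in IRF4-RV. Of 12 tested, 2 were higher (*Spn* and *Ptprc*, beside 16.0% of all genes tested) and 4 lower (beside 13.7%). The lower sum therefore did not hold for each marker. Among the lower was *Igll1* of the surrogate light chain, which fell by 1.30 on the log2 scale (edgeR adjusted p = 5.95e-05). *Cd79b* of the B cell receptor stayed at 290 to 293 CPM. Of 12 stromal and endothelial markers, 6 had enough counts to be tested, and these summed to 47.5 and 89.4 CPM in the EV-RV libraries and to 47 and 221 CPM in the IRF4-RV libraries. IRF4-RV replicate 2 thus stood apart by stromal transcripts, with *Col1a1* counted 2265 times there and 496, 850 and 528 times in EV-RV replicate 1, EV-RV replicate 2 and IRF4-RV replicate 1. 

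All 9 genes had enough counts to be tested, and 4 of them were higher with IRF4-RV at an FDR of 0.1, namely *Pecam1*, *Itgal*, *Itgb1* and *Selplg*. None was lower by edgeR (0 also at an unadjusted p under 0.05 and by DESeq2), and 5 were not called. Across all 14637 genes tested, 29.7% were called, 16.0% higher and 13.7% lower, so that 4 of 9 stood beside a share of 16.0%. The median log2 fold change was 0.21 over the 9 genes and 0.01 over all genes tested. The 2 genes with more than a 2-fold difference were *Pecam1* and *Itgal*, whereas *Itgb1* and *Selplg* were 19.4% and 19.2% higher. The CPM of the groups did not overlap for 7 of the 9 genes, beside 61.3% of all genes tested. The 7 include *Itgb7*, for which the nearest values of the groups were both 2.25 CPM after rounding. When library size alone was used for scaling, 2 of the 9 genes were called higher, *Pecam1* and *Itgal*, beside 11.9% of all genes. Of all calls, 53.8% were higher with TMM and 37.8% with library size only.

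**Figure D1:**
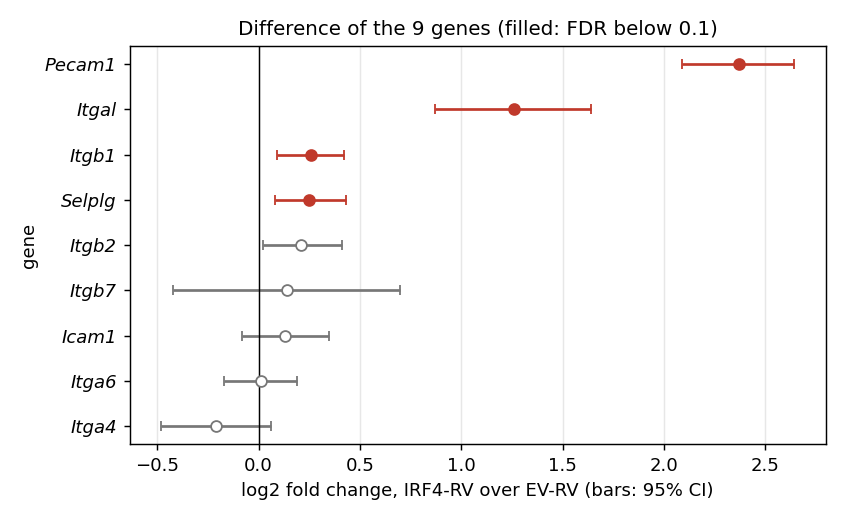
Log2 fold change of the 9 genes with IRF4-RV against EV-RV (horizontal axis; bars are 95% confidence intervals from the edgeR fit, n = 2 libraries per group), with filled points for an FDR below 0.1. *Pecam1* at 2.37 and *Itgal* at 1.26 lie apart from the other 7, which lie between -0.21 and 0.26.

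*Pecam1* (ENSMUSG00000020717, minus strand, chr11:106654217-106750628 on GRCm38) encodes PECAM-1, or CD31, a homophilic receptor of endothelium, platelets and leukocytes. It was counted 941 and 765 times in EV-RV against 4974 and 4506 in IRF4-RV. Both IRF4-RV libraries lay far above both EV-RV libraries, and the groups did not overlap. Its level went from 26.2 ± 2.79 to 135 ± 16.3 CPM (SD, n = 2 each), 5.15-fold (95% confidence interval 4.27 to 6.23). On the log2 scale this was 2.37 (SE 0.118, edgeR adjusted p = 1.37e-05), with 2.22 to 2.49 on leaving out single libraries. Bulk libraries do not tell a higher level per cell from more cells that carry the transcript. The endothelial genes *Cdh5* and *Kdr* were counted at most 3 times in any library, and the platelet genes *Pf4* and *Ppbp* at most once. Other platelet markers were less empty, with *Gp1ba* at 0.0109 to 0.0808 CPM per kilobase of exon. The 7 platelet markers summed to 2.91 and 2.95 CPM in EV-RV against 39.4 and 38 CPM in IRF4-RV, nearly all of it *Itgb3*. The part of other cell types in the *Pecam1* values was not tested. *Pecam1* was lower in the library rich in stromal transcripts than in the other IRF4-RV library, at 124 against 147 CPM.

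*Itgal* (ENSMUSG00000030830, plus strand, chr7:127296260-127335138) encodes αL, the chain that makes LFA-1 with β2. It had counts of 114 and 93 in EV-RV against 273 and 261 in IRF4-RV. Both IRF4-RV values exceeded both EV-RV values. In CPM this was 3.18 ± 0.33 against 7.61 ± 0.631 (SD, n = 2 each), 2.39-fold (95% confidence interval 1.83 to 3.12, edgeR adjusted p = 0.00148), with a log2 fold change between 1.15 and 1.36 when each library was left out.

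*Itgb2* (ENSMUSG00000000290, plus strand, chr10:77530252-77565708), the β2 chain shared by LFA-1 and the myeloid integrins, gave 1518 and 1345 counts in the EV-RV and 1743 and 1848 in IRF4-RV libraries. The groups did not overlap in CPM, at 42.7 to 45.5 against 50.8 to 51.5, but the difference of 0.21 on the log2 scale (95% confidence interval 0.02 to 0.41) did not pass the threshold (edgeR adjusted p = 0.115). Further α chains that pair with β2 were near or at 0, with *Itgam* (αM) counted 0, 0, 2 and 1 times and *Itgax* (αX) at 0 counts in all 4 libraries, which allows a level of up to 0.0824 to 0.0952 CPM. Of the exon bases of *Itgam*, 68.7% are overlapped by *Gm49368* on the same strand, so reads there may not have been counted for *Itgam*. Levels of different genes were compared per kilobase of annotated exon. On this scale the ratio of *Itgb2* to *Itgal* was 28.7 and 31.1 in EV-RV and 13.7 and 15.2 in IRF4-RV. The α chain of LFA-1 was therefore the scarcer transcript in each library, and its deficit against β2 was smaller in both IRF4-RV libraries than in either EV-RV library.

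*Icam1* (ENSMUSG00000037405, plus strand, chr9:21015985-21028817), the ligand of LFA-1, was counted 882 and 830 times in EV-RV against 1021 and 1010 in IRF4-RV, or 26.3 to 26.4 against 27.7 to 30.1 CPM, with no overlap. Its log2 fold change of 0.13 (95% confidence interval -0.08 to 0.35) did not pass the test (edgeR adjusted p = 0.356). Of its exon bases, 11.7% are overlapped by *Gm47079* on the opposite strand, and whether counting used the strand is not given in the sources used here. *Icam2*, another LFA-1 ligand, differed by 0.20 on the log2 scale (edgeR adjusted p = 0.137).

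*Itgb1* (ENSMUSG00000025809, plus strand, chr8:128685654-128733200) encodes β1, or CD29, the common β chain of VLA-4, VLA-6 and most matrix-binding integrins. It had counts of 6493 and 5808 in EV-RV against 7782 and 8098 in IRF4-RV. Its level was 189 ± 7.35 CPM with EV-RV and 226 ± 5.2 CPM with IRF4-RV (SD, n = 2 each), and the groups did not overlap. The 1.19-fold difference (95% confidence interval 1.06 to 1.34, log2 fold change 0.26, standard error 0.0726, edgeR adjusted p = 0.0404) was called, but the call was lost with library size only (log2 fold change 0.16, adjusted p = 0.16) and without EV-RV replicate 2 (0.122), IRF4-RV replicate 1 (0.299) or IRF4-RV replicate 2 (0.155). Its CPM in IRF4-RV replicate 2 was 0.968 times that in IRF4-RV replicate 1, and that of *Col1a1* 3.99 times. Without IRF4-RV replicate 2 the log2 fold change was 0.28. The part of stromal transcripts in the *Itgb1* values was not tested.

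Of the 2 α chains among the 9 genes that pair with β1, neither passed the test. *Itga4* (ENSMUSG00000027009, plus strand, chr2:79255426-79333123) encodes α4, which pairs with β1 or β7, and gave 1302 and 1025 counts in the EV-RV and 1106 and 1058 in IRF4-RV libraries. Its CPM overlapped between groups, with 39 and 32.5 against 32.7 and 29.1. The log2 fold change of -0.21 (95% confidence interval -0.48 to 0.06) did not pass the test (edgeR adjusted p = 0.241), although it did without EV-RV replicate 2 (-0.34, adjusted p = 0.0966). Of its exon bases, 8.04% are overlapped by *Cerkl* on the opposite strand. *Itga6* (ENSMUSG00000027111, plus strand, chr2:71745616-71858416), the laminin-binding α6 chain, was counted 8612, 7789, 9027 and 8792 times in EV-RV replicates 1 and 2 and IRF4-RV replicates 1 and 2. The groups overlapped, at 247 to 258 against 241 to 267 CPM, and the difference was 0.01 on the log2 scale (95% confidence interval -0.17 to 0.19, edgeR adjusted p = 0.957), with a sign that turned to -0.08 with library size only.

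Per kilobase of exon, *Itga4* reached 0.0585 and 0.0515 of the level of *Itgb1* in the EV-RV libraries and 0.0415 and 0.0381 in the IRF4-RV libraries. *Itga6* reached 0.6 and 0.606 of it in EV-RV against 0.525 and 0.491 in IRF4-RV. With the longest transcript as length these were 1.17 and 1.19 against 1.03 and 0.961, so whether α6 lay below or above β1 depends on the length used. Both ratios to β1 were lower in each IRF4-RV library than in each EV-RV library, with no test. *Itga9* (α9, also a partner of β1) lay at 0.152 to 0.165 of *Itgb1* and was chosen for mention after its values were seen. *Itgav* (αV, which pairs with several β chains) made up 4.06% and 4.14% of the summed α chain level per kilobase in EV-RV. This was below *Itga4*, at 6.72% and 5.94%. In IRF4-RV *Itgav* made up 5.33% and 5.56%, slightly above *Itga4* at 5.19% and 5.04%. *Itga5*, the α chain of the fibronectin receptor VLA-5, was counted 11, 22, 2 and 15 times, higher in both libraries numbered 2, as the stromal markers were, and its difference did not pass the test (log2 fold change -1.09, edgeR adjusted p = 0.378). Without IRF4-RV replicate 2 it was called lower, at -3.03 (edgeR adjusted p = 0.0572), with only 2 counts in the remaining IRF4-RV library.

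*Itgb7* (ENSMUSG00000001281, minus strand, chr15:102215995-102231944) encodes β7, which with α4 makes the gut-homing receptor for MAdCAM-1 and with αE binds E-cadherin. It was counted 63 and 71 times in EV-RV against 78 and 82 in IRF4-RV. In CPM the lower IRF4-RV value, 2.25, equalled the higher EV-RV value to 3 digits. The difference of 0.14 on the log2 scale (edgeR adjusted p = 0.735) had a wide confidence interval, from -0.42 to 0.70 (0.747-fold to 1.62-fold). *Itgb1* exceeded *Itgb7* 55.5 to 70 times per kilobase, so nearly all β chain transcript open to α4 was β1 in each library. *Itgae*, the αE chain, was counted 1 to 6 times and was not tested, and *Madcam1* was at 0 counts in all 4 libraries.

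**Figure D2:**
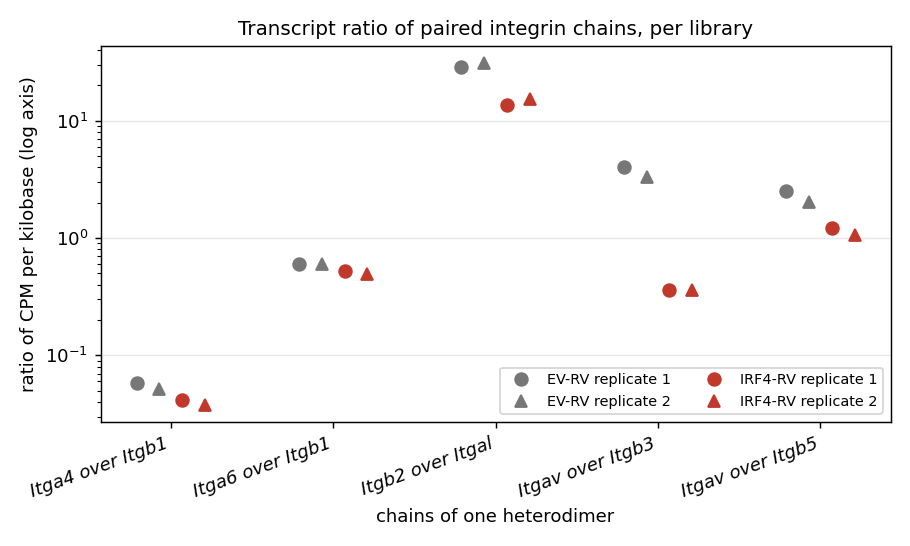
Ratio of the levels of chains that share a heterodimer in each library (vertical axis, log scale, ratio of CPM per kilobase of exon; gray EV-RV, red IRF4-RV, circle replicate 1, triangle replicate 2). *Itgb2* over *Itgal* falls from 28.7 and 31.1 to 13.7 and 15.2, and *Itgav* over *Itgb3* from 4 and 3.31 to 0.362 and 0.361.

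The upstream sequences of the VLA-4 chains are shown because β1 was called higher and α4 was not. IRF4 binds DNA weakly alone and is recruited by ETS factors such as PU.1 to composite elements, or binds interferon-stimulated response elements. Of the 9 genes, 4 have a window in the RefSeq promoter table (GRCm38.p6, 250 bases before to 50 after the start), *Itga4*, *Itgb1*, *Itgb7* and *Icam1*. None of the 4 windows held the composite letters GGAANNGAA, which 8.24% of all 32851 windows held on either strand, or the response element letters GAAANNGAA, which 8.56% held. The letters can overlap, and a window without them says only that they are not in this stretch. The 250 bases before the start are printed 5′ to 3′ on the strand of the gene, at chr2:79255176-79255425 for *Itga4* and chr8:128685404-128685653 for *Itgb1*. Capitals mark GGAA or its reverse complement, the core of ETS sites, which 96% of all windows hold and which was looked for after the other letters were not found.
Itga4: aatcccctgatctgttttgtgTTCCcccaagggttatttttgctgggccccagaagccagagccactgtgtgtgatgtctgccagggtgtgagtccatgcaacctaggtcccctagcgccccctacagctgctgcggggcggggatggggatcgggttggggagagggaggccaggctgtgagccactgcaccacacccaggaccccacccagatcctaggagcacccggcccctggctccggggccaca
Itgb1: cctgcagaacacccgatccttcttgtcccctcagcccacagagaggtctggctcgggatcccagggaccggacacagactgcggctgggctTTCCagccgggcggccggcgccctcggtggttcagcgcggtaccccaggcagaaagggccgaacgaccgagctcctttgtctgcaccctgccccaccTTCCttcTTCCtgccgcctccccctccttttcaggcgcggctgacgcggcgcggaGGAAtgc
The *Itgb1* stretch held 4 such cores and the *Itga4* stretch 1. The stretch of *Icam1* held 7 and that of *Itgb7* 1, and neither of these genes was called.

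*Selplg* (ENSMUSG00000048163, minus strand, chr5:113818536-113832644) had counts of 5412 and 5162 in EV-RV against 6856 and 6771 in IRF4-RV. Its level was 163 ± 1.07 against 194 ± 11.6 CPM (SD, n = 2 each), with no overlap between groups. The 1.19-fold difference (95% confidence interval 1.05 to 1.35, log2 fold change 0.25, edgeR adjusted p = 0.049) was called, but it lost the call with library size only (0.16, adjusted p = 0.162), without EV-RV replicate 1 (adjusted p = 0.133) and without IRF4-RV replicate 1 (0.43).

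Per kilobase of exon, the order of the 9 genes in the EV-RV libraries was *Itgb1* (46.4 ± 1.8 CPM per kilobase, SD, n = 2), *Selplg* (38.1), *Itga6* (28), *Itgb2* (14.4), *Icam1* (6.05), *Pecam1* (4.21), *Itga4* (2.56), *Itgb7* (0.747) and *Itgal* (0.485). Each gene lay above the next in both libraries, as also in the order with IRF4-RV. In the IRF4-RV libraries *Pecam1* was in place 4, between *Itga6* and *Itgb2*, at 21.7 ± 2.62 CPM per kilobase (SD, n = 2). *Itgal*, at 1.16 ± 0.096, was above *Itgb7*, at 0.822 ± 0.013 (SD, n = 2 each), and the other genes kept their order. With the length of the longest transcript in place of all exons, *Selplg* at 70.4 and *Itga6* at 58.6 came before *Itgb1* at 49.6 CPM per kilobase with EV-RV, and the order of these 3 depends on the length used.

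**Figure D3:**
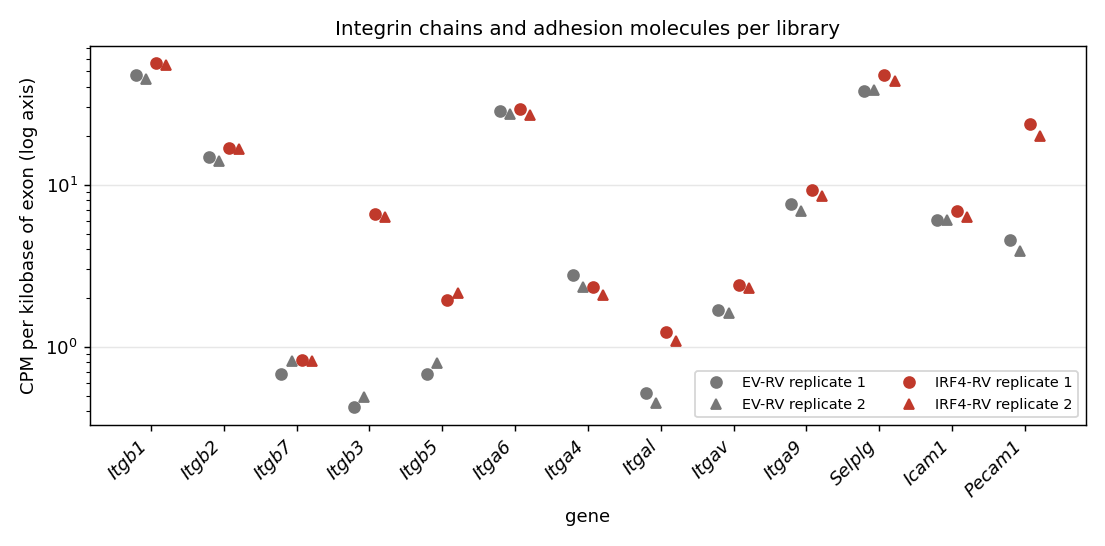
Level of the 9 genes and of 4 other integrin chains in each library (vertical axis, log scale, CPM per kilobase of exon; gray EV-RV, red IRF4-RV, circle replicate 1, triangle replicate 2). *Pecam1*, *Itgal*, *Itgb3* and *Itgb5* are the most widely separated between groups. *Itgb1*, *Itgb2*, *Itgav*, *Itga9*, *Selplg* and *Icam1* do not overlap between groups but lie closer, while *Itga6*, *Itga4* and *Itgb7* show points of both groups at like heights.

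Of 187 other adhesion genes in 9 lists, 128 had enough counts to be tested, 41 of which were higher (beside 16.0% of all genes) and 12 lower (beside 13.7%) with IRF4-RV. The same shares over all genes stand beside the counts of each single list below. The median log2 fold change of the 128 genes was 0.20, against 0.01 over all genes tested. The lists were chosen with earlier results of these data known, so these counts and medians are a description only. Without IRF4-RV replicate 2, the library rich in stromal transcripts, the medians of the 9 lists ranged from -0.75 (other α chains) to 1.41 (other β chains). With all libraries these 2 medians were 0.27 and 1.48. Genes past a log2 fold change of 1 with a mean of at least 50 counts numbered 16, and 15 of these were higher. The mean was taken over all 4 libraries, so a gene can pass it through the group where it is high. *Cd48* did so, with 10 and 7 counts in EV-RV against 113 and 118 in IRF4-RV. *Tln2* and *Epcam* were called lower past the same log2 limit, but their means were under 50 counts. The direction of all genes past the same limits was not counted, so 15 of 16 depends on the rule and is given without a comparison.

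**Figure D4:**
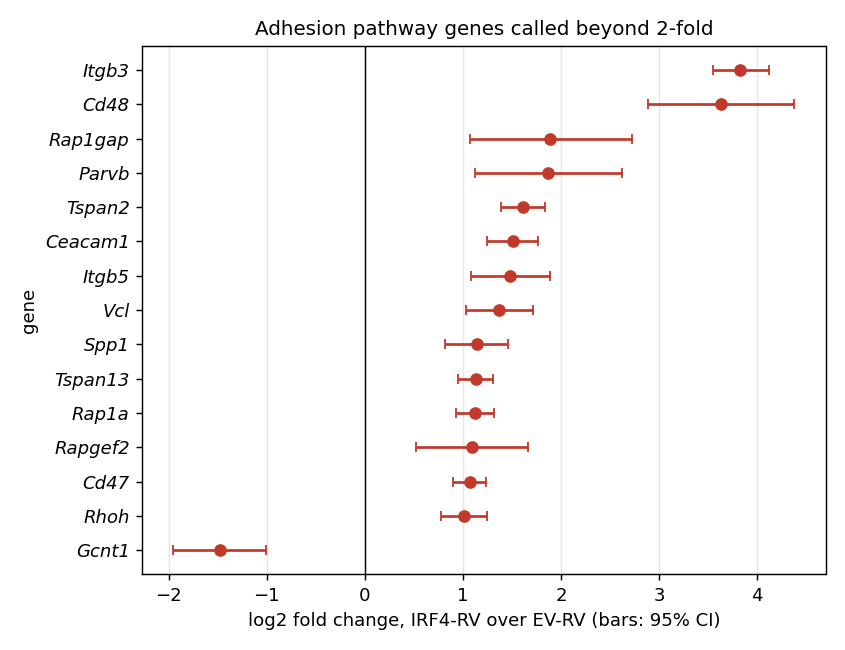
Log2 fold change with IRF4-RV against EV-RV (horizontal axis; bars are 95% confidence intervals from the edgeR fit, n = 2 libraries per group) of 15 of the 16 adhesion pathway genes called past a log2 fold change of 1 with a mean of at least 50 counts. *Itgb3* lies at 3.83 and *Cd48* at 3.63, and *Gcnt1* at -1.48 is the 1 gene below 0. The limit on counts left out *Tln2* and *Epcam*, which were called lower.

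Among 6 other β chains, 3 were tested and 2 were higher. *Itgb3*, the β3 chain of the vitronectin receptor and of the platelet fibrinogen receptor, gave 83 and 91 counts in the EV-RV and 1325 and 1365 in IRF4-RV libraries, with no overlap. It rose 14.3-fold (95% confidence interval 11.7 to 17.4, log2 fold change 3.83, edgeR adjusted p = 1.71e-06). *Itga2b*, its platelet partner, was counted 5, 0, 6 and 7 times and was not tested. *Itgb5*, a β chain that pairs with αV alone, was counted 80 and 89 times against 235 and 279 times, 2.8-fold (edgeR adjusted p = 0.000822). *Itgav*, the αV chain that both bind, was counted 604 and 549 times against 874 and 896 times, 1.42-fold (edgeR adjusted p = 0.00745). CPM in IRF4-RV replicate 2 were 0.954 times those in IRF4-RV replicate 1 for *Itgav*, 0.958 times for *Itgb3* and 1.1 times for *Itgb5*. The part of stromal transcripts in these values was not tested. Leaving out single libraries gave log2 fold changes of 3.72 to 3.94 for *Itgb3*, 1.36 to 1.61 for *Itgb5* and 0.45 to 0.54 for *Itgav*, all called.

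The makeup of the β chain transcripts differed between the groups. Of the summed level of 8 β chains per kilobase, *Itgb3* made up 0.653% and 0.798% in EV-RV against 8.02% and 7.89% in IRF4-RV. *Itgb1* made up 73.9% and 73.7% against 68.1% and 67.7%, and *Itgb2* 23.1% and 22.8% against 20.4% and 20.7%. Among 18 α chains, *Itga6* held 68.9% and 69.9% in EV-RV against 65.6% and 64.9% in IRF4-RV, and *Itgal* 1.25% and 1.15% against 2.72% and 2.65%. *Itgb4*, the other partner of α6, was counted 34, 14, 32 and 17 times and did not pass the test (edgeR adjusted p = 0.952). Of 15 other α chains, 6 were tested, 2 were higher (*Itgav* and *Itga9*) and 0 lower, also 0 at an unadjusted p under 0.05 by edgeR and 0 by DESeq2, which gave 3 of them an adjusted p.

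Among 12 selectins and carriers of selectin ligands, 5 were tested, of which 3 were higher, and none of the 5 had a log2 fold change below 0.13. *Spn*, CD43, a sialomucin of leukocytes, and *Cd44*, the hyaluronan receptor, both carriers of selectin ligands and both chosen for mention after their values were seen, were 1.79-fold (edgeR adjusted p = 0.000254) and 1.59-fold (0.0025) higher. The endothelial selectins were not detectable at this depth, with *Selp* counted at most 2 times and *Sele* 0 times in each library.

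Of 15 enzymes that build selectin ligands, 10 were tested, 3 were higher and 2 lower. *Gcnt1*, which starts the core 2 branch of O-glycans on which PSGL-1 carries its selectin-binding sugar, had counts of 159 and 140 in EV-RV against 53 and 63 in IRF4-RV. It fell by 1.48 on the log2 scale (95% confidence interval -1.95 to -1.01, edgeR adjusted p = 0.00181). The direction was opposite to that of *Selplg*, the carrier, whose call was lost with library size only.

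Among 31 other adhesion receptors in the table, 13 were tested, 5 were higher and 2 lower. *Cd48*, a ligand of CD2 and 2B4, was counted 10 and 7 times against 113 and 118 times (log2 fold change 3.63, edgeR adjusted p = 0.000217). *Ceacam1*, a homophilic receptor with inhibitory tails, was counted 554 and 542 times against 1767 and 1604 times (1.51, edgeR adjusted p = 7.5e-05), and reads could be shared with its close copy *Ceacam2*. *Cd47*, the integrin-associated protein that binds SIRPα, was 2.1-fold higher (edgeR adjusted p = 4.9e-05). *Vcam1*, the counter-receptor of VLA-4 on stroma, was counted 29, 49, 35 and 136 times, high in IRF4-RV replicate 2 as the stromal markers were. Its log2 fold change of 0.98 (edgeR adjusted p = 0.271) became -0.22 without that library.

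**Figure D5:**
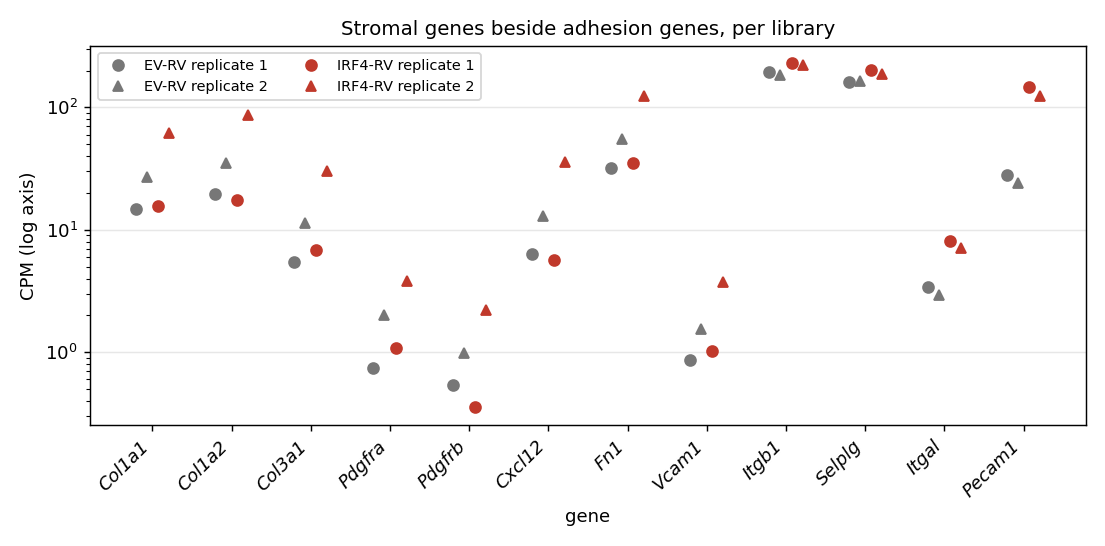
Stromal genes and 4 of the 9 adhesion genes in each library (vertical axis, log scale, CPM; gray EV-RV, red IRF4-RV, circle replicate 1, triangle replicate 2). *Col1a1*, *Cxcl12* and *Fn1* are highest in IRF4-RV replicate 2, as is *Vcam1*, whereas *Itgb1*, *Selplg*, *Itgal* and *Pecam1* are slightly lower there than in IRF4-RV replicate 1.

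Of 33 genes of the machinery that activates integrins, 30 were tested, 9 were higher and 3 lower. *Rap1a*, which encodes RAP1A, gave 4550 and 4904 counts in the EV-RV and 10782 and 11568 in IRF4-RV libraries, 2.18-fold (95% confidence interval 1.9 to 2.5, edgeR adjusted p = 8.67e-05). *Rap1b*, its close homolog and the second source of RAP1, had a log2 fold change of -0.05 (95% confidence interval -0.22 to 0.12, edgeR adjusted p = 0.712). Regulators with opposite actions were higher: *Rapgef2*, an exchange factor that loads RAP1 with GTP, by 1.09 on the log2 scale (edgeR adjusted p = 0.0168), and *Rap1gap*, which ends its signal, by 1.89 (0.00761). *Sipa1*, which also ends it and was far more abundant at 46.5 against 0.104 CPM per kilobase in EV-RV, was lower (log2 fold change -0.46, edgeR adjusted p = 0.00839), and was chosen for mention after its values were seen. *Tln1*, talin, was counted 6008, 3821, 6578 and 5521 times, and its log2 fold change of 0.20 (edgeR adjusted p = 0.498) ranged from -0.06 to 0.50 with each library left out. It was called without EV-RV replicate 1 (0.50, edgeR adjusted p = 0.0536) and without IRF4-RV replicate 2 (0.37, edgeR adjusted p = 0.0501). *Fermt3*, kindlin-3 of blood cells, was counted 6647 and 6411 times against 7844 and 8648 times, 1.17-fold (edgeR adjusted p = 0.057, and 0.176 with library size only). The call was lost without EV-RV replicate 1 (0.141), IRF4-RV replicate 1 (0.277) or IRF4-RV replicate 2 (0.35).

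Of 38 genes that link integrins to actin and signaling, 37 were tested, 11 were higher and 4 lower. *Vcl*, vinculin, which ties talin to actin, was counted 1182 and 826 times against 2900 and 2678 times, 2.58-fold (edgeR adjusted p = 0.000554). *Parvb*, β-parvin, an actin-binding partner of integrin-linked kinase, was counted 22 and 33 times against 90 and 130 times (log2 fold change 1.87, edgeR adjusted p = 0.00517). *Rhoh*, a GTPase of blood cells, was 2.02-fold higher (edgeR adjusted p = 0.000347).

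Among 17 tetraspanins and lateral partners, which organise integrins in the membrane, 14 were tested, 5 were higher and 1 lower. *Tspan2* was counted 745 and 741 times in EV-RV against 2512 and 2405 in IRF4-RV, 3.06-fold (edgeR adjusted p = 2.99e-05), and *Tspan13* was 2.18-fold higher (5.46e-05). Of 20 matrix ligands, 10 were tested and 1 was higher, *Spp1*. It encodes osteopontin, a ligand of αVβ3 and VLA-4, and was counted 1725 and 1585 times against 3227 and 4702 times, 2.2-fold (edgeR adjusted p = 0.000996), with a log2 fold change of 0.91 to 1.32 when single libraries were left out. The tested matrix genes had a median log2 fold change of 0.90 with 1 call, and the 20 ligands summed to 215, 252, 277 and 505 CPM, highest in IRF4-RV replicate 2. Without this library the median was -0.12. The part of stromal transcripts in the matrix values was not tested. Other cell type markers were scarce. The 12 myeloid markers summed to 0.793 to 3.04 CPM, of which *Ly6g*, also a gene of the Ly6 family, gave 71 and 58 counts with IRF4-RV and 1 and 0 with EV-RV. The 10 T and NK cell markers summed to 1.27 to 1.79 CPM. The 7 platelet markers summed to 2.91 and 2.95 CPM in EV-RV against 39.4 and 38 CPM in IRF4-RV, nearly all of it *Itgb3* itself.

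The same letters were searched in the promoter windows of the other adhesion genes. Of 33 genes called higher with a window, 7 held GGAANNGAA, and of 107 genes not called higher, 4 did, beside 8.24% of all windows, where a gene can have more than 1 window. For GAAANNGAA these were 5 of 33 and 13 of 107, beside 8.56%. The 107 take in genes called lower, not called and not tested, such as *Sele* at 0 counts. They therefore also differ in expression from the genes called higher. These are counts with no test, and a match is not a site that IRF4 was shown to bind. Matches at least 10 bases before the end of the upstream stretch in 5 named genes are printed 5′ to 3′ on the strand of the gene, with the match in capitals. They are GGAANNGAA in *Ceacam1* (chr7:25477717-25477745, 110 bases before the start) and *Itga5* (chr15:103366905-103366933), and GAAANNGAA in *Rapgef2* (chr3:79145833-79145861), *Itgav* (chr2:83724197-83724225) and *Sele* (chr1:164048016-164048044).
Ceacam1: actggaaagaGGAATAGAAggacgggagg
Itga5: ccagaggtgaTTCCTTTCCtcattaggaa
Rapgef2: tttttatttaGAAAAGGAAgctttctcta
Itgav: gtgtgcctggTTCTTTTTCttttgattgc
Sele: taagagcccaGAAAAAGAAttaatttaga
*Ceacam1*, *Rapgef2* and *Itgav* were higher with IRF4-RV, *Itga5* did not pass the test, and *Sele* had 0 counts. In *Itgav* and *Itga5* the letters lie on the other strand, so their reverse complement is in capitals. The *Rapgef2* match lies inside the annotated gene (minus strand, chr3:79062516-79286517), 105 bases before an internal start.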

How the data were processed

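Bulk RNAseq was available for 2 EV-RV and 2 IRF4-RV libraries. Per the submitters' processing notes, reads were checked with FastQC 0.11.2 and handled with STAR 2.4.0j on GRCm38, featureCounts and DESeq2 1.22.1. The authors deposited raw counts per Ensembl gene, whole numbers without normalization. Strand and multimapping settings are not given in the sources used here, so overlapping genes and close copies are uncertain. Of 55359 identifiers, 52083 matched GENCODE M21 (GRCm38), which gave symbols, coordinates and exon lengths. The others held 0.203% to 0.486% of the counts.

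Genes passing filterByExpr were tested in R 4.3.3 with edgeR 4.0.16 (TMM factors, quasi-likelihood F test, Benjamini-Hochberg adjustment over all genes tested, FDR 0.1). Fold changes have 95% confidence intervals. The 9 genes were given by name, and the lists and the rule for named genes were chosen with earlier results of these data known. Named were the 9 genes, pathway genes called with an absolute log2 fold change of at least 1 and a mean of at least 50 counts (at most 25), and the partner chains, counter-receptors and activators *Itgav*, *Itgae*, *Itga5*, *Itgam*, *Itgax*, *Itgb4*, *Itgb3*, *Vcam1*, *Madcam1*, *Selp*, *Sele*, *Icam2*, *Tln1*, *Fermt3*, *Rap1a* and *Rap1b*. Markers of B progenitor, myeloid, platelet, stromal and T or NK cells were summed.

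Alternatives were DESeq2 1.42.0, its size factors in edgeR, library size only, 2 filters on low counts, an FDR of 0.05, the replicate number as a block, leaving out each library, and transcript length. Replicates of a group differed by more than sampling noise (chi-square per degree of freedom 14.1 and 13.1) and were kept separate. On simulated counts, with far fewer changed genes than the 4349 called here, the test made more false calls than its nominal share. Adjusted p-values are therefore taken as too small, by an amount that the simulation does not give for these data. RefSeq promoter windows (GRCm38.p6) were searched on both strands. Protein sequences were not used here, and 1 gene of the rule, 1 marker and 1 sequence are not reported here.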

Additional observations from a re-analysis of the deposited data

How the results depend on the processing

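*Pecam1* and *Itgal* kept their direction and call under every alternative run, from DESeq2 to each library left out. The number of the 9 genes called higher was 4 and became 2 with library size only, and 2 to 3 with a library left out (2 without IRF4-RV replicate 1). The number called lower was 0, and 0 to 1 with a library left out (*Itga4* without EV-RV replicate 2).

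The labels share replicate numbers between groups without saying that they mark a common batch. Deviations of same-numbered libraries correlated across genes with r = 0.26. With the replicate block, 6394 genes were called in place of 4349, 69 pathway genes were higher in place of 41, 1 of the 9 genes was lower (*Itga4*, adjusted p = 0.0453) and 5 were higher, with *Itgb2* added (adjusted p = 0.0168). *Icam2*, *Tln1* and *Vcam1* were then called as well.

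Signs turned for genes that were not called: *Itga6* to -0.08 with library size only and -0.01 with the filter of 1 CPM, and with a library left out *Itga6* ranged from -0.09 to 0.08, *Itgb4* from -0.67 to 0.65, *Vcam1* from -0.22 to 1.61, *Tln1* from -0.06 to 0.50 and *Rap1b* from -0.10 to 0.00. *Fermt3* lost its call at an FDR of 0.05. The cause was not tested.

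With the longest transcript as length, levels with EV-RV moved to 3.66 CPM per kilobase for *Itga4*, 49.6 for *Itgb1*, 0.61 for *Itgal*, 58.6 for *Itga6*, 70.4 for *Selplg*, 10.4 for *Icam1* and 7.62 for *Pecam1*, as its construction implies. With 2 libraries per group, small differences rest on little. Counts of transcripts do not give protein or active integrin at the surface.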

Other observations

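Further adhesion genes outside the rule for named genes were chosen after their values were seen. *Tln2*, the second talin gene, had counts of 82 and 72 in EV-RV against 12 and 22 in IRF4-RV (log2 fold change -2.29, edgeR adjusted p = 0.00316). *Epcam*, a homophilic receptor mostly of epithelia, was counted 29 and 25 times against 7 and 8 times (-1.94, edgeR adjusted p = 0.0192). The related focal adhesion kinases went opposite ways, with *Ptk2* (FAK) counted 1381 and 1140 times against 890 and 974 times (-0.55, edgeR adjusted p = 0.00644) and *Ptk2b* (PYK2) 3086 and 2384 times against 4929 and 5034 times (0.76, edgeR adjusted p = 0.00189). *B4galt1*, a galactosyltransferase of selectin ligand synthesis, was counted 3538 and 3628 times against 7788 and 7543 times (0.98, edgeR adjusted p = 0.000203).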
